A study of Zea mays with 10 samples.

Results

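The expansins and the xyloglucan transferase xet1 of maize were followed on 10 arrays taken through constant light. The xet1 probe set was chosen by its signal, which was highest at the first time point, ZT0. The expansins were chosen by name and mean signal, from every probe set whose gene symbol or synonym in the array's annotation marks an alpha-expansin (expA) or a beta-expansin (expB). A probe set is the group of short DNA probes on the array that reads 1 transcript. Of 17 expansin probe sets for 12 genes, 14 probe sets for 11 genes reached a signal of 50 on 3 or more arrays. The 9 of highest mean signal, which read 7 genes, were kept, so that 10 probe sets for 8 genes are described among 17621 on the array, of which 12512 passed the same filter. The last expansin probe set inside the limit, expA4 probe set 2, had a mean signal of 299, and the first outside it, expB5 probe set 1, had 204.

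Expansins are small proteins of the plant cell wall that let the wall creep and the cell enlarge, without cutting its polymers. Alpha-expansins act on the contacts between cellulose and matrix polymers, and the beta-expansins, which are numerous in grasses, are best known from grass pollen and from growing leaves and stems. Xyloglucan transferases cut and rejoin xyloglucan, a hemicellulose that coats cellulose, and grass walls hold less of it than the walls of most other flowering plants.

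The plants were of the B73 inbred line, grown for 7 days under cycles of 12 h light and 12 h dark and then kept in constant light. Zeitgeber time (ZT) counts the hours from dawn at the transfer. The whole shoot above the prop roots was harvested, and each array held RNA from 3 pooled replicates of 5 seedlings, so the labels give 1 array and no replicate at each of ZT0, ZT4 and ZT8 and at every 4 h from ZT20 to ZT44. ZT12 and ZT16 were not analysed here, and all plants had the same genotype and light schedule. ZT0 was taken at dawn, at the end of the last dark period, whereas every later array followed hours of constant light. ZT0 and ZT24 therefore share the time of day but not the light before harvest. Time in constant light and seedling age rose together and cannot be told apart.

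Array medians lay between 188 and 213.52 signal units, and 68.9% to 70.0% of probe sets reached a signal of 50. The leaf and shoot label was checked on marker genes. All 4 mesophyll markers, 4 of 4 bundle sheath markers and 3 of 3 epidermis markers reached 50 on every array, as did 7 of 11 markers of meristem and dividing cells. By contrast, 0 of 4 pollen markers passed the filter, with a highest single signal of 40.9. Markers were matched by symbol only. The mesophyll list so holds PDK1 (mean signal 556) beside C4ppdkZm1 (12607), and the bundle sheath list holds pep (270). Whether PDK1 and pep mark these cell types was not checked. As deposited, the summed mesophyll signal ran from 24899 at ZT28 to 34678 at ZT0. The bundle sheath sum ran from 14661 at ZT28 to 24550 at ZT0. The epidermis sum ran from 2978 at ZT28 to 3615 at ZT4, and that for meristem and dividing cells from 3563 at ZT20 to 4661 at ZT0. These sums were not normalized between arrays. In normalized log2, ZT28 and ZT0 stood at 13.71 and 13.54 in C4ppdkZm1 and at 12.88 and 12.70 in mdh6. They stood at 9.16 and 9.11 in PDK1 and at 13.29 and 13.34 in pep1. On that scale each bundle sheath marker was lower at ZT28 than at ZT0. Normalization set each value by its rank on the array, and C4ppdkZm1 had the same value, 13.71, at ZT20, ZT28, ZT32, ZT36 and ZT44. Differences between arrays in such strong signals are thus limited on that scale. In whole shoots, fewer cells of a type and less RNA per cell cannot be told apart. No label gives a scan or extraction batch, so a batch effect was not tested.

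xet1 (GRMZM2G026980), the only xyloglucan enzyme named in the array's annotation, was far higher on the first array than on any later one. Its signal was 2193 at ZT0, 762 at ZT4, 642 at ZT8, 523 at ZT20, 555 at ZT24, 515 at ZT28, 411 at ZT32, 489 at ZT36, 378 at ZT40 and 444 at ZT44. The high value did not recur at the second subjective dawn, ZT24, which held only the fourth place in the order of the arrays. After quantile normalization, ZT0 was 2.72 times the next highest array (ZT4), 4.30 times the median of the other 9 arrays and 5.80 times the lowest (ZT40). Of all probe sets tested, 16 (0.128%) had a ZT0 array at least this far above their next highest array. Peaks of that size on other arrays were not counted. These values are a description, since ZT0 chose xet1.

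The order of the xet1 levels on the normalized scale was ZT0, ZT4, ZT8, ZT24, ZT20, ZT28, ZT36, ZT44, ZT32 and ZT40. The scatter of the 9 later arrays around a fitted curve was 0.14 in log2. The gaps from ZT20 to ZT28 (0.03), from ZT28 to ZT36 (0.08) and from ZT44 to ZT32 (0.02) were smaller than this scatter. Those from ZT24 to ZT20 (0.16), from ZT36 to ZT44 (0.18) and from ZT32 to ZT40 (0.16) were little above it. A gap carries the scatter of both its arrays, so the order within all these pairs is not settled. The first 3 places went to the first 3 time points, with gaps of 1.44 after ZT0, 0.24 after ZT4 and 0.23 after ZT8. The 3 lowest values were at time points after ZT28, but were not clearly set apart from ZT36.

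The choice of xet1 required the 9 arrays from ZT4 to ZT44 to lie below ZT0 but set no order among them. On these 9 arrays the level of xet1 had a slope of -0.52 in log2 per 24 h (SE 0.11, 95% interval -0.77 to -0.28). This did not pass the test once adjusted over all 12466 probe sets (limma, Benjamini-Hochberg adjusted p = 0.0710, unadjusted p = 0.000842), while 0.457% of all probe sets did and 9.31% had a negative slope at an unadjusted p of 0.05 or less. The slope passed in a model without the 24-h terms (-0.57, adjusted p = 0.00655) and without the ZT20 array (-0.63, adjusted p = 0.0201). With other single arrays left out in turn, the adjusted p rose as high as 0.391. The 24-h component of xet1 on these 9 arrays had an amplitude, from peak to trough, of 0.15 in log2 (SE 0.17, adjusted p = 0.876).

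**Figure D1:**
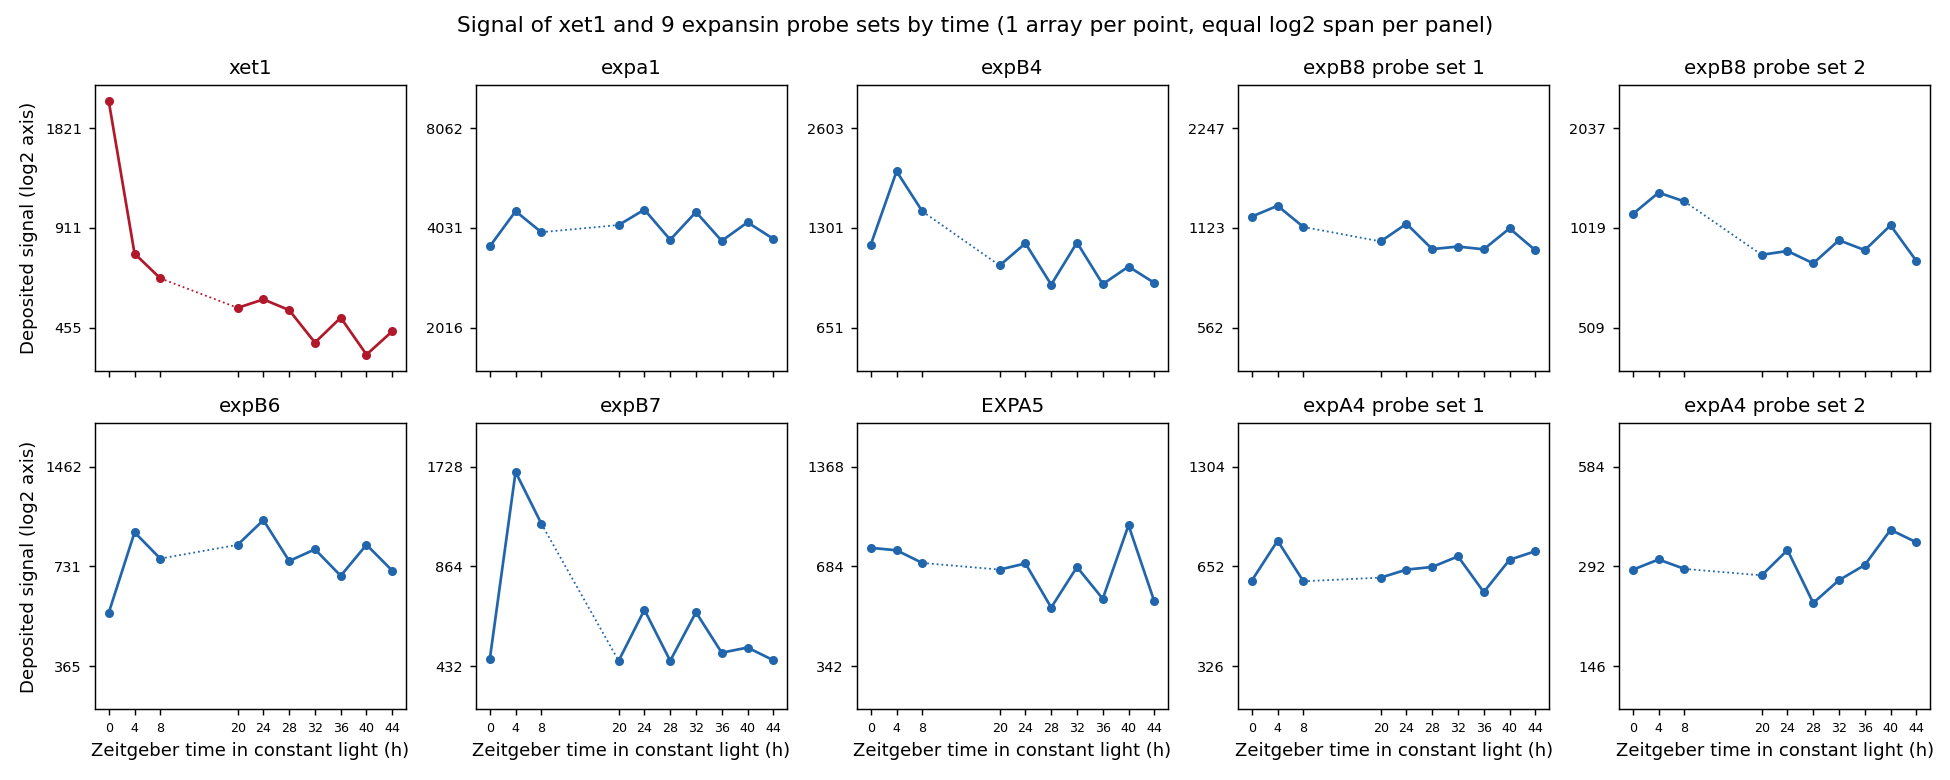
Deposited signal (log2 axis, the same span of log2 units in each panel) against Zeitgeber time in hours for xet1 and the 9 expansin probe sets, with 1 array per point and a dotted line over the gap between ZT8 and ZT20. xet1 stands at 2193 at ZT0 and at 762 or lower afterwards, whereas expB7 stands at 454 at ZT0 and 1664 at ZT4.

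Among the expansins, the beta-expansins expB7 and expB4 had the widest ranges, and both were highest at ZT4, followed by ZT8. expB7 (GRMZM2G342246) had a signal of 454 at ZT0, 1664 at ZT4, 1162 at ZT8, 449 at ZT20, 639 at ZT24, 449 at ZT28, 628 at ZT32, 474 at ZT36, 492 at ZT40 and 450 at ZT44. Its ZT4 and ZT8 arrays lay above all others, and the remaining 8 arrays lay between 449 and 639. The step from ZT0 to ZT4 was 3.57-fold on the normalized scale, whereas ZT28 was 0.662 times ZT24 a day later. ZT4 was 3.82 times ZT28, and ZT8 was 1.91 times ZT32.

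expB4 (GRMZM2G154178) had a signal of 1160 at ZT0, 1928 at ZT4, 1460 at ZT8, 1003 at ZT20, 1170 at ZT24, 878 at ZT28, 1176 at ZT32, 881 at ZT36, 995 at ZT40 and 889 at ZT44. As with expB7, ZT4 and ZT8 were the highest arrays. The lowest signals, at ZT28, ZT36 and ZT44, lay between 878 and 889. ZT4 was 2.24 times ZT28 on the normalized scale. Between their highest and lowest arrays, expB7 spanned 3.92-fold and expB4 2.25-fold, and these 2 of 9 expansins were those that spanned at least 2-fold, against 16.6% of all probe sets tested. The median span was 1.70-fold over the 9 expansin probe sets and 1.49-fold over all probe sets.

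expB6 (GRMZM2G176595) differed from these by a low first array rather than by high ones. Its signal was 530 at ZT0, 926 at ZT4, 771 at ZT8, 849 at ZT20, 1008 at ZT24, 759 at ZT28, 823 at ZT32, 685 at ZT36, 849 at ZT40 and 709 at ZT44. ZT0 was its lowest array and ZT24, the same clock time a day later, its highest, 1.85 times ZT0 on the normalized scale. In the annotation of the current B73 assembly, expB6 and expB7 lie on chromosome 1 with 2 protein-coding genes between them.

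expB8 (GRMZM2G013002) was read by a pair of probe sets among the members, which moved together (r = 0.88 over the 10 arrays). expB8 probe set 1 had a signal of 1216 at ZT0, 1311 at ZT4, 1131 at ZT8, 1023 at ZT20, 1157 at ZT24, 970 at ZT28, 987 at ZT32, 969 at ZT36, 1120 at ZT40 and 963 at ZT44. expB8 probe set 2 had 1123 at ZT0, 1302 at ZT4, 1225 at ZT8, 846 at ZT20, 868 at ZT24, 797 at ZT28, 936 at ZT32, 874 at ZT36, 1038 at ZT40 and 811 at ZT44. Both were highest at ZT4, and in probe set 2 the first 3 arrays stood above the other 7. The remaining expB8 probe set, with a mean signal of 30.4, did not pass the filter. The array's numbering places 4 other tested probe sets in the same transcript cluster, which carry no expansin name and whose r with the expB8 probe sets lay between -0.46 and 0.11.

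Among the alpha-expansins, expa1 (GRMZM2G339122), which the choice by mean signal ranked first, had 3548 at ZT0, 4529 at ZT4, 3915 at ZT8, 4114 at ZT20, 4580 at ZT24, 3715 at ZT28, 4503 at ZT32, 3686 at ZT36, 4192 at ZT40 and 3739 at ZT44. Its lowest array was ZT0, and its highest, ZT24, was 1.29 times as high in deposited signal. EXPA5 (GRMZM2G361064) had 778 at ZT0, 765 at ZT4, 700 at ZT8, 669 at ZT20, 698 at ZT24, 514 at ZT28, 681 at ZT32, 546 at ZT36, 910 at ZT40 and 536 at ZT44. Its highest array, ZT40, lay between arrays at 546 and 536, which were among its 3 lowest.

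expA4 (GRMZM2G445169) was also read by a pair of probe sets among the members, and these moved together less closely than those of expB8 (r = 0.36 over the 10 arrays). expA4 probe set 1 had 591 at ZT0, 779 at ZT4, 588 at ZT8, 603 at ZT20, 637 at ZT24, 649 at ZT28, 699 at ZT32, 545 at ZT36, 682 at ZT40 and 724 at ZT44. expA4 probe set 2 had 285 at ZT0, 306 at ZT4, 287 at ZT8, 274 at ZT20, 327 at ZT24, 226 at ZT28, 265 at ZT32, 295 at ZT36, 376 at ZT40 and 345 at ZT44. ZT4 was the highest array of the first probe set and ZT40 of the second.

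Neither a 24-h curve, a steady change over the course nor a departure at ZT0 passed the adjusted test in any of the 9 expansin probe sets. For the 24-h cosine and sine, 0 of 9 passed the limma test after Benjamini-Hochberg adjustment, where 0% of all probe sets did. At an unadjusted p of at most 0.05, 0 of 9 expansin probe sets stood against 11.1% of all. Their fitted amplitudes, from peak to trough, ran from 0.07 to 0.76 in log2, the last being that of expB7 (SE 0.39), with adjusted p between 0.588 and 0.970. At 1 array per time point, simulated amplitudes of 1 were recovered in 67.2% of cases, so a smaller rhythm may not have been detectable.

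For the linear change over time, 0 of 9 expansin probe sets passed the adjusted test, against 6.55% of all probe sets (3.22% in the declining direction). At an unadjusted p of at most 0.05, 4 of 9 had a negative slope, against 13.8% of all probe sets, and this count was 1 without ZT28, 2 without ZT8 and 2 without ZT44. These were expB8 probe set 2 with a slope of -0.42 in log2 per 24 h (SE 0.11, adjusted p = 0.0524), expB8 probe set 1 with -0.25 (SE 0.09, adjusted p = 0.113), expB4 with -0.42 (SE 0.16, adjusted p = 0.122) and EXPA5 with -0.37 (SE 0.16, adjusted p = 0.171). The expB8 slope passed in both probe sets without the 24-h terms (adjusted p = 0.0301 and 0.0314) and without the ZT20 array (adjusted p = 0.0331 and 0.00971), and in probe set 2 also without the ZT40 array (adjusted p = 0.0480), after median centring (adjusted p = 0.0459) and with robust variances (adjusted p = 0.0469). expB4 passed without the 24-h terms (slope -0.45, adjusted p = 0.0239). Without ZT28 the slope of expB4 was -0.22 (adjusted p = 0.485) and that of expB8 probe set 2 was -0.34 (adjusted p = 0.273). expB7 had the steepest slope of the 9, -0.55, but also the largest error (SE 0.31, adjusted p = 0.268). The slope was likewise negative in 8 of 11 markers of meristem and dividing cells, with a median of -0.32 and 2 past the adjusted test. It was also negative in 3 of 3 epidermis and 4 of 4 bundle sheath markers (medians -0.17 and -0.10, 0 past it). It was negative in 0 of 4 mesophyll markers, where normalization limits differences between strong signals. The part of the markers in the expansin slopes was not tested.

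At ZT0, all 9 expansin probe sets lay below the curve fitted through the other arrays, as did 49.7% of all probe sets, whereas xet1 lay above its own curve. The adjusted test was passed by 0 of 9, where 0.783% of all probe sets passed and 0.448% passed as lower. At an unadjusted p of at most 0.05, 3 of 9 were lower, against 6.82% of all, and this count was 1 without the ZT4 array and otherwise 2 to 4 with single arrays left out. They were expB6 at -0.87 in log2 (SE 0.22, adjusted p = 0.128), expB7 at -1.35 (SE 0.46, adjusted p = 0.261) and expa1 at -0.31 (SE 0.13, adjusted p = 0.362). The expB7 signal at ZT0, 454, was itself close to those at ZT20 (449), ZT28 (449) and ZT44 (450). Its curve ran through the high ZT4 and ZT8 arrays, and without ZT4 the expB7 departure was -0.91. The median over the 9 was -0.18, against 0.00 over all probe sets tested. In 5 of the others, expB8 probe sets 1 and 2, EXPA5 and expA4 probe sets 1 and 2, the sign of the departure turned when single arrays were left out. Of these, EXPA5 (-0.002, SE 0.33), expB8 probe set 2 (-0.006, SE 0.23) and expB8 probe set 1 (-0.05, SE 0.18) lay almost on the curve.

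The ZT4 and ZT8 arrays, the light hours of the first day, were then set against the same curve with 1 term for both, a contrast chosen after the expB7 and expB4 values had been seen and so no independent evidence for them. All 9 expansin probe sets lay above the curve (50.4% of all probe sets did), with a median of 0.32 in log2 against 0.00 over all probe sets. In expa1, expB6 and EXPA5 the sign turned when single arrays were left out. expB7 lay 1.45 above it (SE 0.27, 95% interval 0.84 to 2.06, adjusted p = 0.165) and expB4 0.54 above it (SE 0.22, adjusted p = 0.596). None of 12512 probe sets passed the adjusted limma test (0%), and the lowest adjusted p of any was 0.0665. At an unadjusted p of at most 0.05, 2 of 9 expansin probe sets and 3.2% of all were higher, and the count was 1 without ZT4 or without ZT36. Without the 24-h terms expB7 passed at 1.48 (adjusted p = 0.0243).

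**Figure D2:**
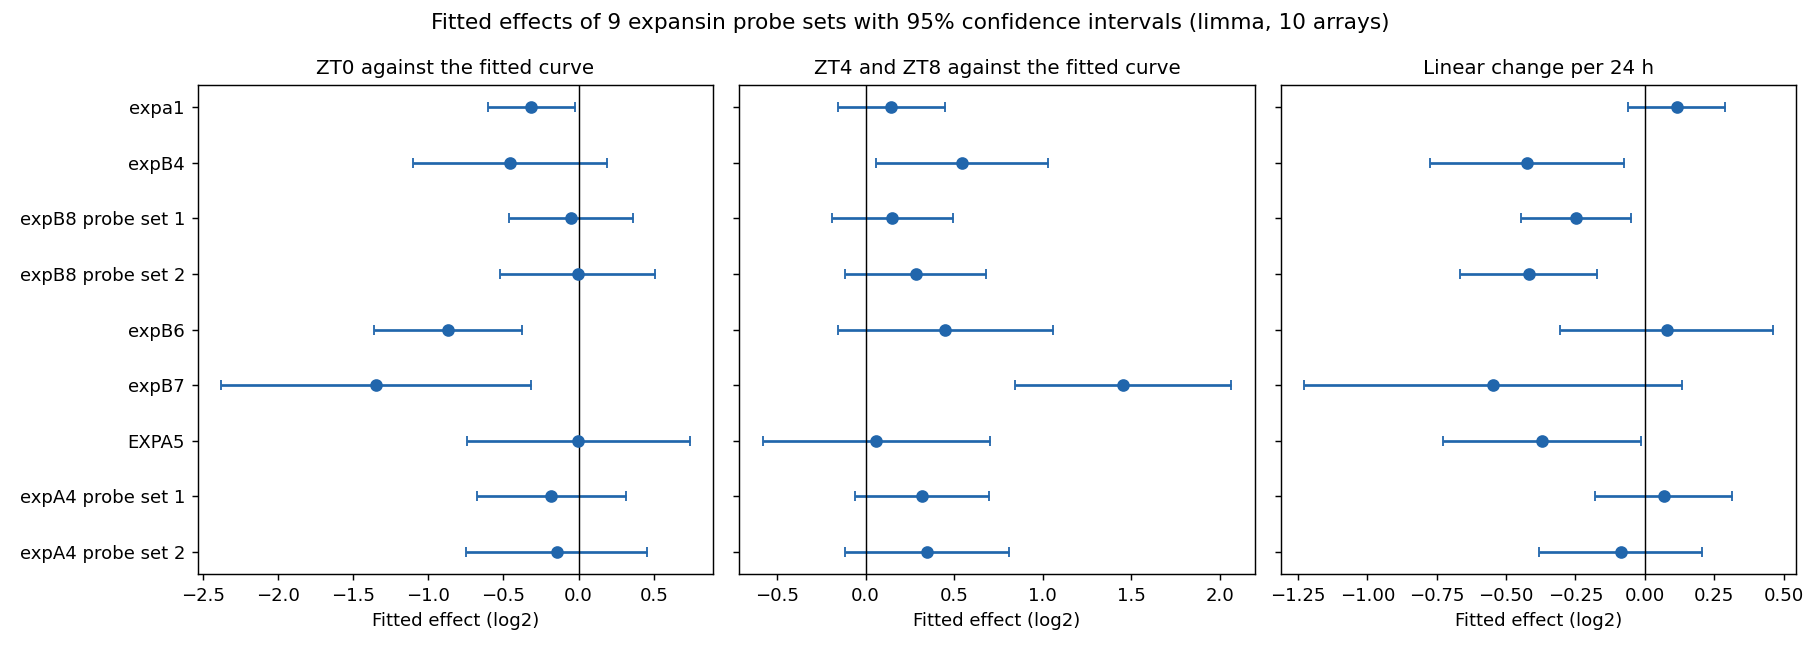
Effects in log2 fitted with limma for the 9 expansin probe sets, as points with 95% confidence intervals, for the ZT0 array against the curve, for ZT4 and ZT8 together against the curve and for the linear change per 24 h. For ZT0 all points lie below 0 and for ZT4 with ZT8 all lie above it, with expB7 farthest out at -1.35 and 1.45. The curve that ZT0 is set against runs through the ZT4 and ZT8 arrays.

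In 4 cases a pair of arrays holds the same time of day on both days, and in each the second day was compared with the first without a test. At the light-phase time of ZT28 against ZT4, all 9 expansin probe sets were lower on the second day, with a median difference of -0.56 in log2, where 49.9% of all probe sets were lower. The differences ran from -0.11 in expa1 to -0.67 in EXPA5, -1.16 in expB4 and -1.93 in expB7. On the same normalized scale, 10 of 11 markers of meristem and dividing cells were also lower at ZT28 than at ZT4, with a median of -0.39 (-0.86 to 0.13), and 3 of 3 epidermis markers were lower, with a median of -0.31. For bundle sheath it was 3 of 4 (median -0.15), and the 4 mesophyll markers were all higher (0.09 to 0.31). As deposited, and so not normalized between arrays, C4ppdkZm1 fell from 14266 at ZT4 to 10020 at ZT28. Likewise pep1 fell from 10686 to 7846 and mdh6 from 6633 to 6442, whereas PDK1 rose from 509 to 590. The part of these markers in the expansin differences was not tested.

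The other pairs were more divided. For ZT24 against ZT0, 4 of 9 expansin probe sets were lower (50.2% of all probe sets), with differences of 0.89 in expB6, 0.50 in expB7 and -1.91 in xet1. For ZT32 against ZT8, 6 of 9 were lower (49.1% of all), with expB7 at -0.93. For ZT44 against ZT20, 7 of 9 were lower (50.7% of all), the differences lying between -0.37 and 0.25. In the 3 pairs without ZT0, the differences of xet1 were -0.66, -0.70 and -0.29. Markers of meristem and dividing cells were lower on the second day in 9 of 11, 8 of 11 and 4 of 11 cases for ZT24, ZT32 and ZT44, and their part was not tested.

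**Figure D3:**
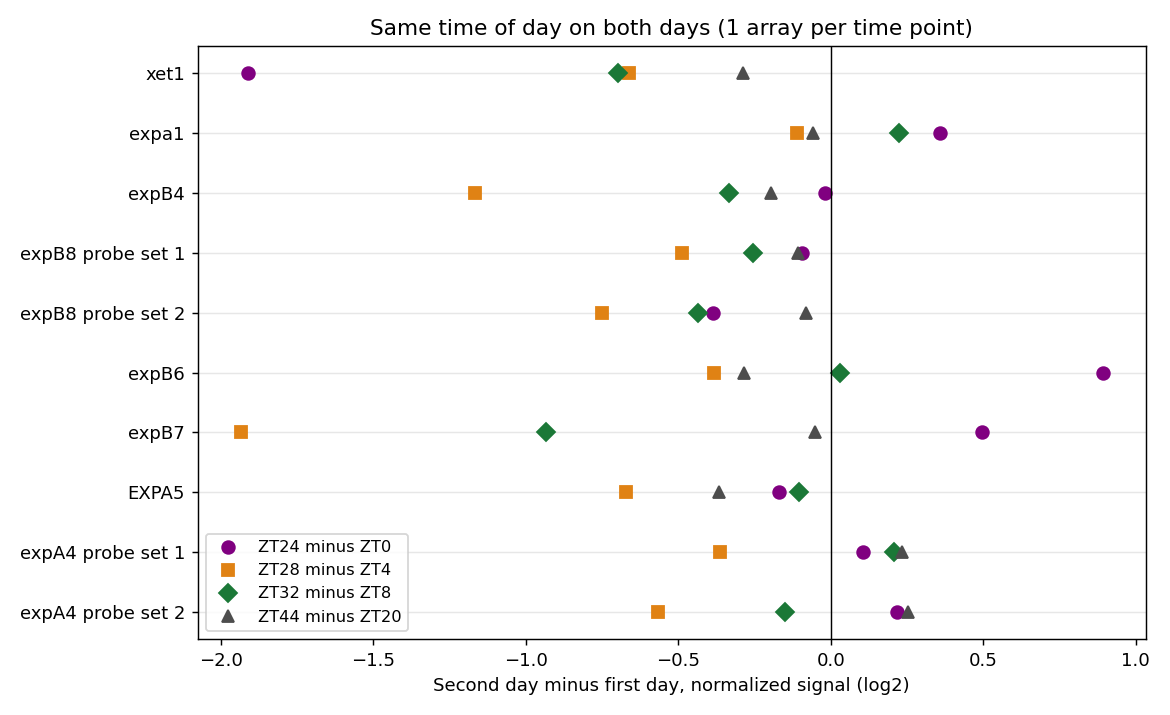
Difference in log2 normalized signal between the second and the first day at the same time of day, for xet1 and the 9 expansin probe sets, with 1 point per pair of arrays. The ZT28 minus ZT4 squares of all expansin probe sets lie below 0, down to -1.93 in expB7, and the ZT24 minus ZT0 circle of xet1 lies at -1.91 and that of expB6 at 0.89.

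Among the expansins the profiles shared part of their shape. Over the 10 arrays the 36 pairs of expansin probe sets had r between -0.29 and 0.94, with a median of 0.45, and 34 were above 0. The pair most alike was expB4 and expB7 (r = 0.94, Spearman's rho = 0.90), and r was 0.76 over the 8 arrays without ZT4 and ZT8. expa1 was most like expB6 (r = 0.80). xet1 had r = -0.72 with expa1 over all arrays and -0.23 without ZT0, and it had r = 0.19 with expB7 over all arrays and 0.83 without ZT0. These r are across time points that share arrays and are given as a description.

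The 5 expansin probe sets that passed the filter but lay past the limit of 9 were expB5 probe set 1, expa2, expB3, expA4 probe set 3 and expA3, with mean signals from 70.2 to 204. expB5 probe set 1, whose gene is separated from expB8 by 1 protein-coding gene on chromosome 9, had a signal of 130 at ZT0, 306 at ZT4, 198 at ZT8, 238 at ZT20, 227 at ZT24, 204 at ZT28, 218 at ZT32, 167 at ZT36, 191 at ZT40 and 168 at ZT44. Its lowest array was ZT0 and its highest ZT4, and its departure from the curve at ZT0 was -1.24 in log2 (SE 0.26, adjusted p = 0.0736). The other 4 had other orders, with expa2 highest at ZT8 (268) and lowest at ZT20 (139), expB3 highest at ZT24 (139) and lowest at ZT44 (97.6), expA4 probe set 3 highest at ZT0 (92.7) and lowest at ZT20 (54.2), and expA3 highest at ZT24 (90.4) and lowest at ZT8 (57.4). Their ZT0 departures were -0.07 in expa2, -0.05 in expB3, 0.17 in expA4 probe set 3 and -0.19 in expA3. The ZT4 with ZT8 term was 0.63 in expB5 probe set 1, 0.40 in expa2 and 0.09 in expA4 probe set 3. It was -0.20 in expB3 and -0.09 in expA3. The 3 probe sets that failed the filter had mean signals of 30.4 (expB8 probe set 3), 8.49 (expB5 probe set 2) and 2.39 (EXPB9, a beta-expansin of grass pollen).

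A further 3 probe sets, matched by the study to Arabidopsis xyloglucan enzymes, were also highest at ZT0, by smaller factors than xet1. The match to XTH9 (GRMZM2G180870) had 2372 at ZT0, 1653 at ZT4 and values between 1148 and 1545 on the other 8 arrays. The match to XTR4 (GRMZM2G060837) had 258 at ZT0, 183 at ZT4, 173 at ZT28 and between 95.7 and 118 elsewhere, and the match to TCH4 (GRMZM2G413006) had 1498 at ZT0 and between 967 and 1352 afterwards. At ZT0, 0 of 3 passed the adjusted limma test, and 2 of 3 were higher at an unadjusted p of 0.05 or less, against 5.41% of all probe sets. All 3 lay above the curve, as did 50.3% of all. The departures were 0.53 in log2 for GRMZM2G180870 (XTH9 match) (SE 0.15, adjusted p = 0.169), 0.74 for GRMZM2G060837 (XTR4 match) (SE 0.33, adjusted p = 0.407) and 0.20 for GRMZM2G413006 (TCH4 match) (SE 0.19, adjusted p = 0.763). The study had marked these 3 as cycling on the same hybridizations, so they are not an independent sample of the family.

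A probe set matched to Arabidopsis EXPB2 (GRMZM2G021427), which has no expansin name in the array's annotation and was picked out after its values were seen, had a signal of 249 at ZT0, 1093 at ZT4, 512 at ZT8, 240 at ZT20, 272 at ZT24, 362 at ZT28, 260 at ZT32, 201 at ZT36, 237 at ZT40 and 179 at ZT44. Like expB7 and expB4 it was highest at ZT4 and next at ZT8, and its ZT4 and ZT8 term was 1.42 in log2 for GRMZM2G021427 (AtEXPB2 match) (SE 0.33, adjusted p = 0.240).

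The cellulose synthases, which make the cellulose of the wall, were described beside the expansins as another family of wall genes. All 12 listed CesA genes were tested, 0 passed the adjusted test for a 24-h curve and 2 reached an unadjusted p of 0.05 or less, against 11.1% of all probe sets. These were cesa10, with an amplitude of 0.47 in log2 (SE 0.11) and a fitted peak at 1.1 h (adjusted p = 0.306), and CesA-1, with 0.42 (SE 0.12) and a peak at 22.6 h (adjusted p = 0.354). The next lowest p were those of CesA-8 (amplitude 0.39, SE 0.15, adjusted p = 0.463) and CesA-9 (0.28, SE 0.11, adjusted p = 0.468). The paper listed several cellulose synthase genes as cycling, with peaks at ZT20 or ZT0. It used further time points, another normalization and other criteria for a rhythm. Which of the 12 genes these are was not matched here. The fitted peak lay between 21 and 3 h in 11 of 12 cellulose synthases, in 2 of 9 expansin probe sets and in 28.9% of all probe sets. This window was not among the planned comparisons and was not tested, so these counts are a description and no independent evidence. At ZT4 and ZT8, all 9 expansin probe sets inside the limit lay above the curve. Of those past the limit, expB3 (-0.20) and expA3 (-0.09) lay below it and the others above it. All 12 cellulose synthases lay below the curve (49.6% of all probe sets did), by effects between -0.25 and -0.03. Of these effects, 0 passed the adjusted limma test. Only that of CesA-9 had an unadjusted p of 0.05 or less, against 4.4% of all lower at that level. For ZT28 against ZT4, 2 of 12 cellulose synthases were lower, with a median difference of 0.26.

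**Figure D4:**
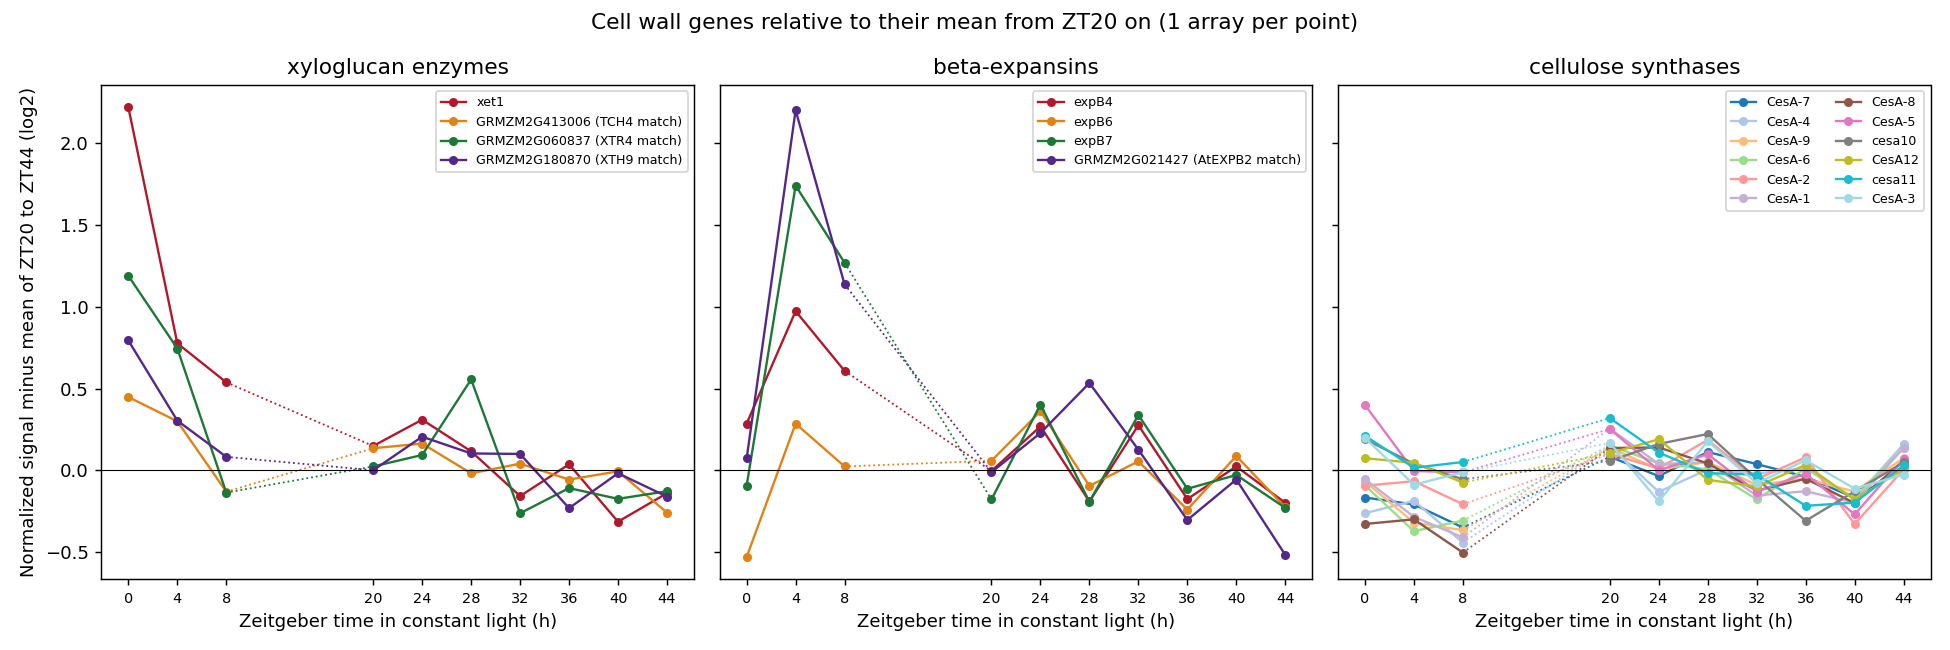
Normalized signal in log2, relative to each probe set's own mean from ZT20 to ZT44, against Zeitgeber time in hours for 4 xyloglucan enzymes, 4 beta-expansins and 12 cellulose synthases, with 1 array per point and a dotted line over the gap between ZT8 and ZT20. The xyloglucan enzymes are highest at ZT0, expB4, expB7 and the EXPB2 match at ZT4, and the cellulose synthases stay within a narrower band.

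Of 1087 named probe sets compared, those whose log2 profile was most like that of xet1 over the 10 arrays were AGA3b (r = 0.98), HB133 (r = 0.96), PIP2-1, a plasma membrane aquaporin (r = 0.96), tua5, an alpha-tubulin (r = 0.95), and dxs1, the first enzyme of the plastid isoprenoid pathway (r = 0.95). Their likeness rests in part on the ZT0 array, without which r was 0.96, 0.92, 0.84, 0.91 and 0.70 in the same order. AGA3b had a signal of 1212 at ZT0 and between 109 and 194 on the later arrays, PIP2-1 had 8138 and between 4436 and 6473, and tua5 had 4557 and between 2806 and 3987. Those most like expa1 were opr7 (r = 0.93), CP22 (r = 0.88) and Gln1-4, a glutamine synthetase (r = 0.84).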

How the data were processed

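Total RNA from shoots was hybridized to the Affymetrix GeneChip Maize Genome Array at 10 time points. The authors deposited linear signal intensities. The submitters' processing notes name MAS5, and its version is not given in the sources used here. From these deposited intensities, a floor of 1 was set (2968 values lay under it), and arrays were quantile normalized in log2. Control probe sets (113 of 17734) were left out. Signals printed by array are as deposited, and folds and effects are from normalized log2 values unless given as deposited. No constant was added before log2, so the floor limits a fold only where a value lay under 1.

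The filter kept probe sets that reached a signal of 50 on 3 or more arrays. The model, fitted in limma 3.58.1 (R 4.3.3) with lmFit and trended eBayes, held a linear change plus a cosine and a sine of 24 h, with 6 residual degrees of freedom, 5 with a term for ZT0 or for ZT4 with ZT8. All amplitudes, fitted and simulated, are from the peak to the trough of the 24-h curve. Tests were two-sided, with Benjamini-Hochberg adjustment over all probe sets and a threshold of 0.05. With 1 array per time point each p-value measures the scatter about a fitted curve, whose precision is limited by the number of arrays. xet1 was tested only on the 9 arrays without ZT0. The members and lists were chosen with earlier results of these data known.

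The tests were checked on 5 simulations of 12512 probe sets, 200 of them changed. A size of 1 in log2 was recovered in 67.2% for the 24-h curve, 90.4% for the linear change, 51.2% for ZT0 and 70.0% for ZT4 with ZT8, with 4.48% to 5.27% of calls false.

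Gene names came from the array's annotation, where 1452 probe sets have 1 gene symbol, 1 has several and 16168 have none, updated through Entrez numbers to RefSeq's genes of Zm-B73-REFERENCE-NAM-5.0, where 1377 matched. Of 18 expansin and xet1 probe sets 15 matched, and the 3 of expA4 kept the array's symbol. Named are all members, up to 4 genes per wall list with the lowest p of the 24-h curve, and the 5 and 3 named probe sets most like xet1 and expa1. The lists for pectin enzymes, glucanases, wall proteins and growth hormones needed gene descriptions, which the tables used here do not give, and were not analysed here. The xyloglucan and EXPB2 matches were added after the data were seen, from a table of the study held in part. Alternatives were deposited values or median centring, other filters and floors, an offset between days, no linear change, no 24-h terms, other periods, robust variances and each array left out.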

Additional observations from a re-analysis of the deposited data

Results flagged for a closer look

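In 8 of 9 expansin probe sets the step across the morning went up from ZT0 to ZT4 and down from ZT24 to ZT28, as it did in 22.6% of all probe sets tested, and with 1 array per time point the difference between the mornings was not tested. The ratio of the first step to the second was widest in expB7, at 5.39 (3.57-fold against 0.662-fold). It was 2.42 in expB6 (1.76 against 0.729) and 2.22 in expB4 (1.61 against 0.727). In the alpha-expansins it was 1.72 for expA4 probe set 2 (1.12 against 0.651), 1.38 for expA4 probe set 1 (1.33 against 0.960) and 1.38 for expa1 (1.24 against 0.900). For expB8 it was 1.31 in probe set 1 (1.07 against 0.812) and 1.29 in probe set 2 (1.14 against 0.890). EXPA5 was the exception, since its normalized signal was lower at the end of both steps. The 8 ratios share the same 4 arrays, so they are not 8 separate observations.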

How the results depend on the processing

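No paired analysis by replicate was possible because each time point has 1 array, all labelled replicate 1. The pairs of arrays at the same time of day on both days were given as values without a test. Counts over all probe sets moved most. With single arrays left out, the linear count of 820 ran from 2 (without ZT28) to 2311 (without ZT20), the ZT0 count of 98 from 43 (without ZT20) to 213 (without ZT4), the ZT4 with ZT8 count of 0 from 0 to 10 (without ZT8) and the 24-h count from 0 to 0. Without the 24-h terms the linear count was 2624 and the ZT4 with ZT8 count 69, which was also 5 on deposited values, 1 after median centring and 4 with robust variances. The ZT0 count was 263 without a linear change, and the 24-h count 1 with an offset between days. For xet1 without ZT0, the slope was -0.57 without the 24-h terms and -0.63 to -0.45 with single arrays left out, and the 24-h amplitude was 0.09 to 0.32. Of 657 alternative values for single expansins, 615 kept their direction and side of the threshold, 9 passed it and 33 changed sign. The 24-h amplitudes among the 657 are always positive and could not change sign. All 33 changes therefore fell among the slopes, the ZT0 departures and the ZT4 with ZT8 terms. Slopes that changed sign were expa1 (-0.024, median centring), expA4 probe sets 1 (-0.026) and 2 (0.025) without the 24-h terms and, with single arrays left out, expB6 (-0.19 to 0.18) and expA4 probe set 2 (-0.17 to 0.066). ZT0 departures did so for EXPA5 (0.0060 on deposited values, 0.070 without the 24-h terms), for expA4 probe set 2 (0.0033 without them) and, without a linear change, for expB4 (0.054), expB8 probe sets 1 (0.19) and 2 (0.37) and EXPA5 (0.33). With single arrays left out their ranges were -0.27 to 0.059 and -0.30 to 0.17 for expB8 probe sets 1 and 2, -0.23 to 0.12 for EXPA5, and -0.33 to 0.030 and -0.52 to 0.017 for expA4 probe sets 1 and 2, and the ZT4 with ZT8 terms ran from -0.081 to 0.29 in expa1, -0.13 to 0.87 in expB6 and -0.10 to 0.32 in EXPA5. The cause of these changes was not tested.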
